A study of Homo sapiens with 2 samples.

Results

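The cells described here are epithelial cells of human colon organoids that carried little transthyretin (TTR) transcript and, above low limits, no collagen, enterocyte, endocrine or cell-cycle transcripts. A barcode was a member when it held at least 10000 UMIs (unique molecular identifiers, each counting 1 captured transcript), at most 20% of them mitochondrial, and fewer than 300 MALAT1 UMIs per 10000 of its UMIs. In that unit, UMIs per 10000, it had to reach 2 for EPCAM and stay below 5 for the summed collagens COL1A1, COL1A2 and COL3A1. It also had to stay below 2 for FABP2 plus RBP2, below 2 for CHGA, CHGB, MLN and GHRL, below 2 for TOP2A, MKI67, CENPF, UBE2C, CDK1 and BIRC5, and below 50 for TTR. These limits kept 192 of 4898 barcodes (3.92%). Of these TTR-low cells, 47 came from the 3257 barcodes of the untreated library and 145 from the 1641 barcodes of the treated library. Cells that met every limit except that they held 50 or more TTR UMIs per 10000 numbered 716 and 439 and are called TTR-high. Cells with 5 or more collagen UMIs and fewer than 2 EPCAM UMIs per 10000, 284 and 101 in number, served as collagen cells for comparison. Epithelial transcripts in them can be free RNA of the suspension or the cells' own, and these parts were not told apart.

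The organoids came from the established human iPS (induced pluripotent stem) cell line 1383D6. The cells were embedded in Matrigel after FGF2, and taken towards colon in medium with EGF, forskolin, PD98059, 5-aza-2'-deoxycytidine and A-83-01, among other components. Both groups shared this culture. The control group is labelled CNT, and the group labelled 3CK was exposed for 8 days to 3 cytokines (IL-1β, TNF-α and IFN-γ). Each group is 1 droplet library of about 8300 loaded cells from 1 line, so there was no replicate, no test between groups was possible, and every interval below is a 95% interval that covers counting error only.

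IFN-γ binds a receptor with associated kinases and, in part through the factor IRF1, turns on antigen presentation genes, guanylate-binding proteins and the chemokines CXCL9, CXCL10 and CXCL11. TNF-α and IL-1β act through NF-κB, which turns on neutrophil-attracting chemokines, ICAM1 and acute-phase genes. Gut epithelium is a known target of all 3 cytokines in inflamed colon. TTR, AFP, the apolipoproteins and the fibrinogens are made by liver and yolk sac, and several of them also by fetal gut endoderm.

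The start-site windows of 5 genes are shown because the results below turn on them: CXCL10, B2M and CXCL5 were higher in treated TTR-low cells, FGA was lower in TTR-low than in TTR-high cells of both libraries, and AFP belonged to the same hepatic list as FGA. Each line gives the 250 bases before the RefSeq start in GRCh38.p14, on the gene's strand, with motif matches in capitals.
CXCL10: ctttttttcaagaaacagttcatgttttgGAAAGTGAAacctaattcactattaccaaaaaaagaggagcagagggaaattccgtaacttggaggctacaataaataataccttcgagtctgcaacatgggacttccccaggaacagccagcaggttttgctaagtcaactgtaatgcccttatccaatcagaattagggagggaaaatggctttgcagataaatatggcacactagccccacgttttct
B2M: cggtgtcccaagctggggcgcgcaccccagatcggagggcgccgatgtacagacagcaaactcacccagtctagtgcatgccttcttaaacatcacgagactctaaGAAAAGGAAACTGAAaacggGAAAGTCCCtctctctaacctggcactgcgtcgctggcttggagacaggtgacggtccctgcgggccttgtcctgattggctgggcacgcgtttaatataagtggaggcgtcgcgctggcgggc
CXCL5: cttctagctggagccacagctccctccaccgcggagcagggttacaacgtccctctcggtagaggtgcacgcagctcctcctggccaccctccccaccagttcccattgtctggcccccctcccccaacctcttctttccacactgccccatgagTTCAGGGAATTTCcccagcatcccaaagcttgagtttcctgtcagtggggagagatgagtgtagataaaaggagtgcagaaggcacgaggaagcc
FGA: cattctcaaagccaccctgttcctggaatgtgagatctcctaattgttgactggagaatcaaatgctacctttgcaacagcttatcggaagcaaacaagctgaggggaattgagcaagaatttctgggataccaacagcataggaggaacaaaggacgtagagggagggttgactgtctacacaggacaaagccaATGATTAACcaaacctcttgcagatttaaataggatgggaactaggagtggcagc
AFP: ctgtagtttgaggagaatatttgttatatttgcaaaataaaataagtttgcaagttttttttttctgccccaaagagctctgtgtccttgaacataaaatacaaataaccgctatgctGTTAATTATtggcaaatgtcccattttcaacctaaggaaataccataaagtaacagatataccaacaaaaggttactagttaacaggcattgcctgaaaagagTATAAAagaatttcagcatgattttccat

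The gene identifiers are ENSG00000169245 for CXCL10, ENSG00000166710 for B2M, ENSG00000163735 for CXCL5, ENSG00000171560 for FGA and ENSG00000081051 for AFP. The windows lie at chr4:76023498-76023747 on the minus strand for CXCL10, chr15:44711267-44711516 on the plus strand for B2M, chr4:73998678-73998927 on the minus strand for CXCL5, chr4:154590743-154590992 on the minus strand for FGA and chr4:73435971-73436220 on the plus strand for AFP. Motifs were searched on both strands. The capitals in CXCL10 mark 1 interferon-stimulated response element (ISRE, GAAANNGAA), 221 to 213 bases before the start. B2M held 2 overlapping ISRE matches and, 124 to 116 bases before the start, an NF-κB match (GGGANTTTC) on the other strand. In CXCL5 an NF-κB match overlapped a match to the gamma-activated sequence (GAS, TTCNNNGAA). FGA held an HNF1 match (GTTAATNAT) on the other strand, and AFP held an HNF1 match and a TATA match (TATAAA). A GAS match in FGA, 231 to 223 bases before the start, is not in capitals. Of 35116 windows of this length, 6.88% held the ISRE letters, 6.57% GAS, 1.12% NF-κB, 0.723% HNF1 and 10.7% TATA. Of the 15 genes with the largest ratio of treated over untreated TTR-low cells, 12 had a window in the table; ISRE was found for CCL3, CXCL10, GBP1, HLA-F and RSAD2, GAS for CXCL11 and CXCL5, NF-κB for CXCL1, CXCL5 and GBP4, TATA for CCL3, CXCL11 and RSAD2, and HNF1 for none. Of the 14 genes outside the rule that were lowest in TTR-low against TTR-high cells of both libraries, 12 had a window, and FGA alone held HNF1, FGA and RBP4 held GAS, 5 held TATA and none held ISRE or NF-κB. In each of these 2 sets the 12 genes had 15 windows, and a gene counted when any of its windows matched. The shares over 35116 are per window, so the gene counts are in another unit. A match describes the letters and is neither a binding site nor a cause. For NF-κB only the string GGGANTTTC was searched, and other forms of the site were not. A gene without a match, such as CXCL10, is therefore not shown to lack such a site.

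The label was checked against its markers. EPCAM, the epithelial adhesion molecule, is part of the rule. KRT18, a keratin of simple epithelia, was found in every TTR-low cell, with 1.70 UMIs per 10000 in the lowest untreated cell, a median of 67.6 and 508 in the highest, and 4.99, 86.6 and 297 in treated cells. KRT18 does not set these cells apart, because the collagen cells held 5478 CPM (counts per 1000000 of the sum's UMIs) in CNT and 7039 CPM in 3CK against 13786 and 11505 CPM in TTR-low cells. The junction genes did separate them: CDH1 (E-cadherin) stood at 191 and 284 CPM in TTR-low cells and at 14.9 and 11.2 CPM in collagen cells, and CLDN7 (claudin-7) at 387 and 605 against 13.1 and 38.5 CPM. DCN (decorin), a fibroblast matrix gene outside the rule, was at 29.5 and 7.56 CPM against 1229 and 1187 CPM.

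CDX2, a transcription factor of intestine, had 57.4 CPM in untreated and 66.2 CPM in treated TTR-low cells, a log2 ratio of 0.21 (-0.01 to 0.43). TTR-high cells held 85.1 and 94.3 CPM, and collagen cells 30.4 and 34.7 CPM. After each cell was thinned to 10000 UMIs, a CDX2 UMI was seen in 34.0% of CNT and 39.3% of 3CK TTR-low cells (68.1% and 74.5% without thinning) and in 24.6% and 26.7% of collagen cells. Median depths were 78701 and 87295 UMIs in TTR-low and 54464 and 85476 UMIs in collagen cells. The CDX2 level of TTR-low cells was thus under 2-fold above that of collagen cells in both libraries. MMP7, a metalloprotease of stressed epithelium, did not mark the untreated cells: 3 of 47 CNT cells held it, at 1.04 CPM in all, against 40 of 145 3CK cells at 65.0 CPM, with 20.5 UMIs per 10000 in the highest cell. Collagen cells held 0.0548 and 0.425 CPM of MMP7. The cells carried the junction genes of epithelium, and MMP7 was absent from most of them in both libraries.

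The members were chosen by their levels of TTR, EPCAM and the other genes of the limits, so TTR is given as a description. Over all cells of the rule the median TTR level was 584 UMIs per 10000 in CNT and 135 in 3CK, and the collagen cells held medians of 8.51 and 2.04. TTR-low cells ranged from 4.05 to 49.9 with a median of 16.5 in CNT, and from 1.60 to 49.4 with a median of 22.7 in 3CK. By the exact binomial method, they made up 6.16% (4.56 to 8.11) of the 763 rule cells of CNT and 24.8% (21.4 to 28.5) of the 584 of 3CK. Cells lay differently around the boundary in the 2 libraries. In CNT, 10 cells lay between 40 and 50 and 0 between 50 and 60, the 5 nearest cells inside spanning 47.3 to 49.9 and the 5 nearest outside 60.6 to 67.6. In 3CK, 27 and 28 cells lay in those ranges, the 5 inside spanning 48.6 to 49.4 and the 5 outside 50.3 to 51.7. With a boundary at 5 times the collagen-cell median of each library (42.6 in CNT and 10.2 in 3CK, chosen after the data were seen), the shares were 39 of 763 (5.11%, 3.66 to 6.92) and 38 of 584 (6.51%, 4.65 to 8.82), and their intervals overlapped.

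**Figure D1:**
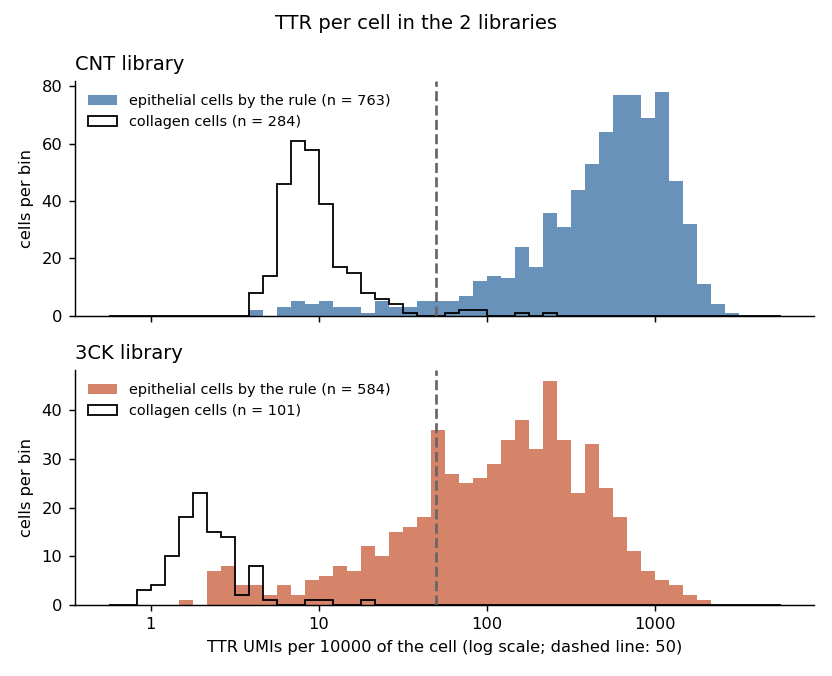
TTR UMIs per 10000 (log axis) against the number of cells, for the cells of the rule in each library, with collagen cells as a black outline and the boundary of 50 as a dashed line. In CNT the TTR-low cells form a thin tail below the peak around the median of 584, with 0 cells between 50 and 60, and in 3CK 27 and 28 cells lie just below and just above the boundary and the median is 135.

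The plot of TTR over cells shows the 3CK members in the lower flank of the distribution of all 3CK rule cells, and the CNT members as a sparse tail. CNT members summed to 3835999 UMIs (13213 to 154488 per cell, median 8779 genes) and 3CK members to 13363516 UMIs (10186 to 237085 per cell, median 8958 genes). No barcode was shared by the 2 libraries.

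The first comparison asked how treated and untreated TTR-low cells differed. The boundary took 6.16% of the rule cells in CNT and 24.8% in 3CK, so the members may be different kinds of cell. Membership and treatment cannot be told apart in the values below. CXCL10, CXCL11 and IDO1 had the largest ratios, followed by GBP4, CCL3, the antiviral gene RSAD2, GBP5, PIGR, BATF2 and GBP1, of which GBP1, GBP4 and GBP5 are guanylate-binding proteins, and the interferon, antigen presentation and chemokine lists were higher nearly throughout. Of 10479 genes with at least 10 CPM in either sum, 740 (7.06%) were more than 2-fold higher in 3CK and 917 (8.75%) more than 2-fold lower, 1657 (15.8%) in all, and the median log2 ratio of all genes was -0.08. With TMM factors the split was 959 higher and 566 lower and the median 0.14, and with DESeq2 size factors it was 935 and 601 and 0.12, so the larger number of lower genes was turned by the scaling. With the single highest cell of each gene left out of each sum, 735 of the 740 higher genes (99.3%) and 751 of the 917 lower genes (81.9%) remained past 2-fold.

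All 32 genes of the IFN-γ response list were tested, and 28 were over 2-fold higher and 0 lower, with a median log2 ratio of 3.84. Of the further interferon-stimulated genes, 25 of 27 were higher and 0 lower, with a median of 3.19. CXCL10, which attracts T cells, had 0 UMIs in all 47 CNT cells, which allows up to 0.782 CPM (3 UMIs of the sum), and 2368 CPM (2342 to 2394) in 3CK cells. Of the 145 treated cells 17 held none, the median was 2.76 and the highest 211 UMIs per 10000, and with 3 UMIs put in place of the CNT count the log2 ratio was at least 11.56. IDO1, which degrades tryptophan, had 2 UMIs in CNT (0.521 CPM) and 690 CPM in 3CK, where the lowest, median and highest cells held 0, 4.47 and 34.7 UMIs per 10000; its log2 ratio was 10.37 (8.52 to 13.42). CXCL11 had 1 UMI in CNT and 481 CPM in 3CK, a log2 ratio of 10.85 (8.37 to 16.15).

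IRF1, a transcription factor of the response, and WARS were present in untreated cells and higher in treated ones. IRF1 stood at 35.7 and 466 CPM, a log2 ratio of 3.71 (3.46 to 3.96). WARS, the tryptophanyl-tRNA synthetase, stood at 32.3 and 1543 CPM; its highest untreated cell held 1.24 UMIs per 10000 and its median treated cell 14.2. GBP1 was seen in 6 of 47 untreated and 144 of 145 treated cells. The feedback inhibitor SOCS1 was at 9.12 and 83.7 CPM, and the checkpoint ligand CD274 (PD-L1) at 0.521 and 43.9 CPM.

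The level of the IFN-γ response list was higher in nearly every treated cell than in nearly all untreated ones. After thinning to 10000 UMIs, untreated TTR-low cells carried between 1 and 20 UMIs of the IFN-γ response list with a median of 5, and treated cells between 12 and 462 with a median of 99. Of the 145 treated cells, 144 (99.3%, 96.2 to 99.98) exceeded the untreated 99th percentile of 18.2. In TTR-high cells the list's median log2 ratio was 4.64, and the interferon-stimulated list's 4.67.

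Antigen presentation by MHC class I was higher in full: 13 of 13 genes were over 2-fold higher, with a median of 3.17 (3.71 in TTR-high cells). B2M, the shared light chain of class I, ranged from 0.695 to 53.3 UMIs per 10000 over untreated cells with a median of 9.42, and from 9.27 to 279 with a median of 80.8 over treated cells. Treated cells were higher as a body, but the lowest of them lay at the untreated median. In sums B2M stood at 1630 and 9054 CPM, a log2 ratio of 2.47 (2.44 to 2.51). HLA-B was at 276 and 5358 CPM, while the non-classical HLA-E was at 111 and 892 CPM. The class I genes are near-identical in sequence, so how reads were divided among them is uncertain. PSMB9, an immunoproteasome subunit, was seen in 10 of 47 untreated and 144 of 145 treated cells, at 4.95 and 644 CPM. TAP1, the peptide transporter, was at 28.2 and 650 CPM, and NLRC5, the class I transactivator, at 6.26 and 75.3 CPM.

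MHC class II was different. Of the 11 genes of its list 2 reached 10 CPM, of which 1 was over 2-fold higher and 0 lower, with a median of 1.75. CD74, the invariant chain, was at 19.3 and 111 CPM, a log2 ratio of 2.52 (2.18 to 2.88). HLA-DPB1, a class II β chain, was at 24.0 and 47.1 CPM, a log2 ratio of 0.98 (0.66 to 1.31). HLA-DRA had 0 UMIs in untreated cells and 1 UMI in the 13363516 of treated cells, and HLA-DRB1 had 0 and 2. CIITA, the class II transactivator, had 2 UMIs in untreated cells and 4 in treated cells (0.521 and 0.299 CPM). At these depths 3 UMIs, the level that a count of 0 allows, are 0.782 CPM in untreated and 0.224 CPM in treated cells.

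**Figure D2:**
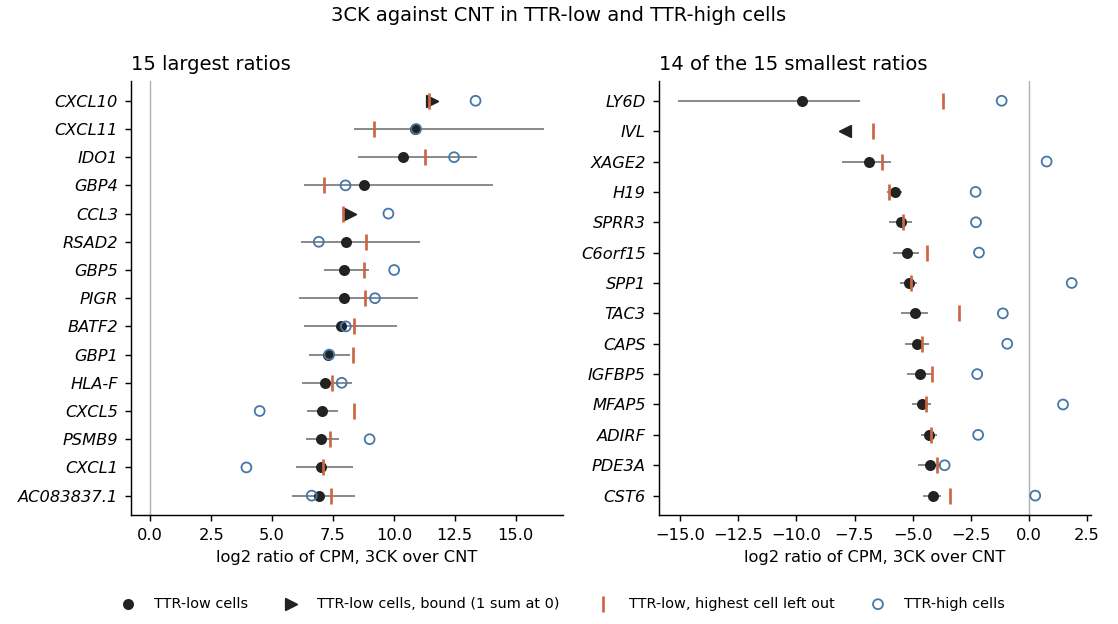
Log2 ratio of 3CK over CNT for the 15 genes with the largest and 14 of the 15 with the smallest ratio in TTR-low cells; filled dots are TTR-low sums with 95% counting intervals, triangles are bounds against a floor of 3 UMIs, red ticks leave out each gene's highest cell, and open blue circles are TTR-high cells. The genes at the top lie far from 0 in all 3 readings, whereas LY6D, at -9.77, moves to -3.69 without 1 cell.

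Of the chemokines, 16 of 17 were higher and 0 lower, with a median of 4.69 against 3.95 in TTR-high cells. CXCL5, a neutrophil attractant, had 6 of 47 untreated cells with a UMI and none above 0.999 UMIs per 10000, and 134 of 145 treated cells with a median of 2.57 and a maximum of 54.1. In sums it was at 5.74 and 749 CPM, a log2 ratio of 7.03 (6.43 to 7.70), against 4.49 in TTR-high cells, whose untreated level was 24.6 CPM. CXCL1 was at 1.82 and 235 CPM, but the treated collagen cells held 2031 CPM of it. CCL20, which attracts CCR6-bearing cells, was at 33.4 and 562 CPM, with an untreated maximum of 7.61 and a treated median of 0.541 UMIs per 10000: some untreated cells exceeded most treated ones. CCL3, normally a macrophage chemokine, had 0 UMIs in untreated cells and was at 229 CPM in 51 of 145 treated cells, with treated collagen cells at 139 CPM; its near-identical copies make the level uncertain.

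Of the NF-κB list, 13 of 24 genes were higher and 0 lower, with a median of 1.40, smaller than that of the interferon list. ICAM1, the leukocyte adhesion molecule, went from 20.3 CPM (16.1 to 25.4) to 934 CPM (918 to 951), and its per-cell medians were 0 and 7.73 UMIs per 10000. The inhibitors NFKBIA and TNFAIP3, made in response to the pathway, were at 61.0 and 193 CPM and at 15.9 and 69.5 CPM. The NF-κB subunit gene RELB, at 42.0 and 53.1 CPM, was under 2-fold.

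The added cytokines and their receptors form a further list, of which 7 of 14 tested genes were higher and 0 lower, with a median of 0.85. IFNGR1, the ligand-binding receptor chain for IFN-γ, was at 80.8 and 254 CPM (log2 ratio 1.65, 1.48 to 1.82), while its partner IFNGR2 was at 60.2 and 73.6 CPM (0.29, 0.08 to 0.50). JAK2, the kinase on IFNGR2, was at 11.5 and 84.3 CPM, a log2 ratio of 2.88 against 1.63 in TTR-high cells. TNFRSF1A was at 70.9 and 109 CPM and TNFRSF1B at 2.35 and 29.0 CPM. IL1R1, the signalling IL-1 receptor, was low in both, at 6.26 and 5.84 CPM (-0.10, -0.78 to 0.62), against 94.7 and 46.4 CPM in collagen cells. TNF had 1 UMI in untreated cells and 19.5 CPM in treated cells, with 47 of 145 holding it. IL1B stood at 22.0 CPM in treated TTR-low cells and at 583 CPM in treated collagen cells.

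Of the 13 tested host defence genes, 10 were higher and 2 lower, with a median of 2.58. PIGR, which carries immunoglobulin A across epithelium, had 2 UMIs in untreated cells and 128 CPM in treated cells, a log2 ratio of 7.95 (6.09 to 10.99), and 2.98 CPM in treated collagen cells. Its treated median was 0.296 and its maximum 17.3 UMIs per 10000; after thinning it was seen in 69 of 145 treated TTR-low cells (47.6%) and in 1 of 101 collagen cells (68.3% and 19.8% without thinning). LCN2, an iron-withholding protein, was at 213 and 1276 CPM (2.58, 2.48 to 2.68). The untreated sum rested on few cells, 12 of 47 holding a UMI with 92.6 UMIs per 10000 in the highest, and without each sum's highest cell the ratio was 3.52. SAA1, an acute-phase protein with the near-identical SAA2, was at 254 and 1129 CPM, and its ratio of 2.15 became 4.74 without the highest cells. C3, complement component 3, was at 25.5 and 289 CPM, with an untreated maximum of 1.66 and a treated median of 1.79 UMIs per 10000.

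Epithelial oxidant enzymes were split. DUOX2, the hydrogen peroxide generator of gut epithelium, was at 31.8 and 454 CPM (log2 ratio 3.84, 3.58 to 4.11) with per-cell medians of 0 and 4.18, and its maturation factor DUOXA2 at 15.6 and 414 CPM. DUOX1 was at 19.6 and 12.3 CPM. NOS2, the inducible nitric oxide synthase, had 2 UMIs in untreated cells and was at 62.0 CPM in 62 of 145 treated cells. Of the cell death list 11 of 20 genes were higher and 0 lower, with a median of 1.75: CASP1, the inflammasome caspase, was at 1.56 and 64.9 CPM, GSDMD at 26.1 and 104 CPM, MLKL at 2.09 and 27.3 CPM, and the death receptor FAS, under 2-fold, at 29.5 and 42.7 CPM. The death ligand TNFSF10 (TRAIL), outside that list, was at 8.08 and 460 CPM.

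Secretory and transport genes did not move together. MUC1 and MUC13, transmembrane mucins, were at 168 and 629 CPM and at 109 and 364 CPM. TFF1, TFF3 and REG4, products of goblet and related secretory cells, were lower in sums: TFF1 at 326 and 144 CPM, TFF3 at 85.8 and 17.9 CPM, and REG4 at 27.9 and 0.524 CPM. In all, 3 of 12 goblet and mucus genes were higher and 5 lower, with a median of -0.59. CFTR, the chloride channel, was at 32.6 and 128 CPM, a log2 ratio of 1.97 (1.71 to 2.25) in TTR-low cells against -0.23 in TTR-high cells. The absorptive list had 1 of 12 genes higher and 6 lower, with a median of -1.0. FABP1, the fatty-acid-binding protein of enterocytes and liver, was at 225 and 42.5 CPM. Per cell, the summed goblet and absorptive lists were higher in treated TTR-low cells at the median. The goblet list had medians of 9.78 UMIs per 10000 in CNT and 20.4 in 3CK, and the absorptive list 3.04 and 6.39. The lower ratios of these 2 lists therefore describe the sums and not the median cell. Of the cholesterol synthesis list 1 of 16 genes was higher and 8 lower, with a median of -0.96 in TTR-low and -1.10 in TTR-high cells. SQLE (squalene epoxidase) was at 56.3 and 17.2 CPM.

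Genes lower in treated TTR-low cells often rested on a few untreated cells. LY6D was at 65.4 and 0.0748 CPM, with 95.6% of its untreated UMIs in 1 of 47 cells. IVL (involucrin) and SPRR3, proteins of the cornified envelope of squamous epithelium, were seen in 4 and 6 untreated cells; IVL was at 53.2 CPM against 0 UMIs in treated cells, and SPRR3 at 132 and 2.92 CPM with 86.0% in 1 cell. SPP1 (osteopontin) was at 192 and 5.39 CPM with 79.1% in 1 cell. For LY6D, IVL, SPRR3 and SPP1 most untreated cells held no UMI. The squamous and urothelial list, which holds none of these 4 genes, had 0 of 7 genes higher and 5 lower, with a median of -2.48. Its summed level was low in most untreated cells, with a median of 0.560 and a maximum of 19.8 UMIs per 10000.

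Others were carried by many untreated cells. H19, an imprinted fetal RNA, was seen in 42 of 47 untreated cells, with a median of 0.870 and a maximum of 36.9 UMIs per 10000, and no treated cell exceeded 0.988. In sums it was at 324 and 5.91 CPM, a log2 ratio of -5.77 (-6.12 to -5.45), against -2.29 in TTR-high cells. Collagen cells held 3106 and 1355 CPM of H19, and the part of free RNA in the untreated value was not tested. KRT7, a keratin of ductal and transitional epithelium, had a median of 3.38 and a maximum of 70.8 UMIs per 10000 in untreated cells and 0.340 and 44.5 in treated cells, 1604 and 310 CPM in sums (-2.37, -2.43 to -2.32). HOXB8, a gene of posterior position seen in 18 untreated and 9 treated cells, was at 33.1 and 3.22 CPM. CAPS (calcyphosin) was seen in 28 of 47 untreated and 25 of 145 treated cells, at 79.0 and 2.84 CPM. The keratin list had 0 of 9 genes higher and 5 lower in TTR-low cells, with a median of -1.01. Not all of its members were carried by many cells: KRT20, at -1.01, was seen in 19.1% of untreated and 12.4% of treated cells without thinning. The summed list per cell was not lower at the median, with 171 UMIs per 10000 in CNT and 185 in 3CK cells. In TTR-high cells the keratin list had 2 of 7 genes higher and 0 lower, with a median log2 ratio of 0.79. KRT18, the most abundant of the list, and KRT8 differed little in TTR-low cells, with log2 ratios of -0.26 and -0.07.

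Cells of 1 library differed widely among themselves. Per-cell levels were combined for gene pairs chosen after their values were seen, and the counts are descriptions. Of the 21 untreated cells with 5 or more KRT7 UMIs per 10000, 2 (9.52%) held 5 or more of AFP, against 14 of the 26 others (53.8%). In treated cells 6 of 20 (30.0%) held AFP at that level, against 78 of 125 (62.4%). Of the 53 treated cells with 10 or more CXCL10 UMIs per 10000, 41 (77.4%) held 5 or more of IDO1, against 26 of the other 92 (28.3%). The opposite held for PIGR, with 1 or more in 5 of 53 (9.43%) against 38 of 92 (41.3%). LCN2 at 5 or more was seen in 17 of 53 (32.1%) and 29 of 92 (31.5%). Both untreated cells with 5 or more IVL held 5 or more of SPRR3 and of S100A9.

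**Figure D3:**
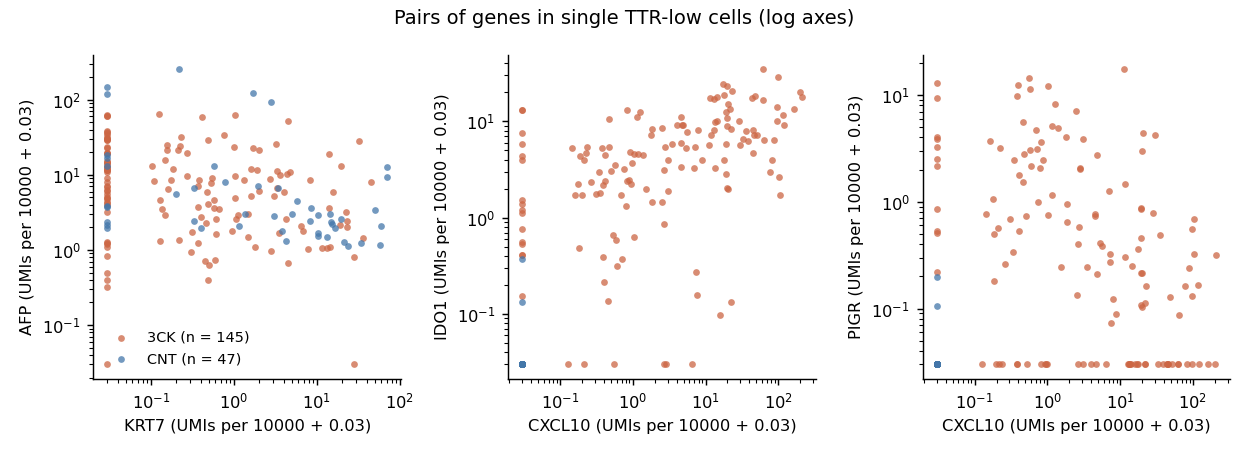
UMIs per 10000 in each TTR-low cell (log axes, 0.03 added) for KRT7 and AFP, CXCL10 and IDO1, and CXCL10 and PIGR, with points coloured by library. Of the 53 treated cells with CXCL10 at 10 or more, 41 hold IDO1 at 5 or more and 5 hold PIGR at 1 or more, and 2 of the 21 untreated cells with KRT7 at 5 or more hold AFP at 5 or more.

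The scatter plots of KRT7, AFP, CXCL10, IDO1 and PIGR show a wide spread within each library, and few treated cells with both CXCL10 at 10 and PIGR at 1. Over TTR ranges within 3CK, the 37 cells with under 10 TTR UMIs per 10000 held IDO1 at 966 CPM and PIGR at 48.9 CPM, the 39 cells from 10 to 25 held 770 and 159 CPM, and the 69 cells from 25 to 50 held 488 and 160 CPM. The IFN-γ list as a whole was level, with sums of 12794, 10873 and 11254 CPM.

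The second comparison set TTR-low against TTR-high cells of the same library. Since TTR chose the cells and the same transcripts were measured, these values are descriptions. The hepatic list, 19 tested genes of plasma proteins and apolipoproteins, was lower in TTR-low cells: 19 of 19 were over 2-fold lower in CNT with a median of -2.39, and 15 of 19 in 3CK with a median of -1.23. The gap between the libraries moved with the boundary: at 5 times the collagen-cell median the medians were -2.59 and -2.55, and with members below 25 TTR UMIs per 10000 they were -2.72 and -1.97. Over all genes 446 of 10232 (4.36%) were over 2-fold lower in CNT and 94 of 9521 (0.987%) in 3CK, 1404 (13.7%) and 893 (9.38%) were higher, or 18.1% and 10.4% either way, and the median log2 ratios were 0.37 and 0.32. The scaling turned this split. TMM factors gave 468 higher and 1246 lower genes in CNT and 151 and 261 in 3CK, with medians of -0.27 and -0.15; DESeq2 size factors gave 554 and 1025, and 158 and 249.

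Fibrinogen, the clotting protein of 3 chains, shows the pattern. FGA, whose window is printed above, was at 213 CPM in TTR-low and 1608 CPM in TTR-high cells of CNT, and at 127 and 662 CPM in 3CK, with log2 ratios of -2.92 and -2.38. Its TTR-low cells ranged from 0 to 48.0 UMIs per 10000 in CNT with a median of 0.409, and from 0 to 24.8 with a median of 0.465 in 3CK. FGB had ratios of -2.39 and -2.13, and FGG of -2.62 and -2.33. Of the apolipoproteins, APOA2 was lower by most, with 1124 and 11592 CPM in CNT and 636 and 4328 CPM in 3CK (-3.37 and -2.77), and APOC1 (-3.15 and -2.51) and APOC3 (-2.70 and -2.57) were also lower. UGT2B11, a glucuronosyltransferase, had the largest ratios, -4.25 and -3.89, with 25.5 against 486 CPM in CNT and 4.56 against 67.8 CPM in 3CK. RBP4, the retinol carrier that binds TTR in plasma, had -2.76 and -1.72. ZG16, a goblet cell lectin that is not a hepatic gene, had -3.16 and -1.86.

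AFP (alpha-fetoprotein), a fetal plasma protein whose window is also printed, had a median of 2.98 UMIs per 10000 in untreated TTR-low cells and 254 in the highest, and a median of 6.63 and a maximum of 64.0 in treated ones. In sums it was at 1343 against 8220 CPM in TTR-high cells of CNT and 1004 against 2551 CPM in 3CK, while collagen cells held 198 and 65.6 CPM. ALB was at 372 and 271 CPM in TTR-low cells. Between libraries the AFP sums differed little in TTR-low cells (log2 ratio -0.42, -0.47 to -0.37) and more in TTR-high cells (-1.69). The CNT sum of TTR-low cells rested on few cells, 5 of which held 80.5% of the thinned AFP UMIs. Per cell the direction was the other way, with 16 of 47 CNT and 84 of 145 3CK cells at 5 or more UMIs per 10000. The hepatic list as a whole had a median of -0.23 between libraries in TTR-low cells (-0.03 with TMM factors) and -1.05 in TTR-high cells. The value in TTR-low cells depended on which cells were summed and how: it was -0.92 below 25 TTR UMIs per 10000, -0.61 with equal weight per cell and -1.48 at 5 times the collagen-cell median.

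**Figure D4:**
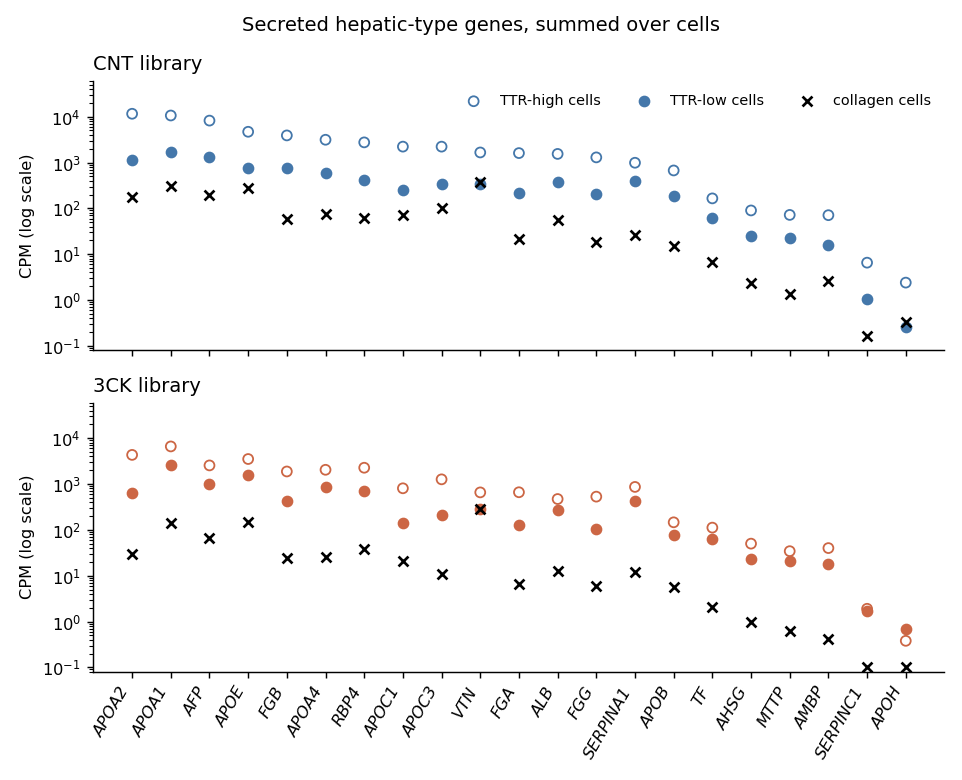
CPM (log axis) of the hepatic list in TTR-low, TTR-high and collagen cells of each library, with values under 0.1 CPM drawn at 0.1. In CNT all 19 tested genes lie over 2-fold lower in TTR-low than in TTR-high cells, and in 3CK 15 of 19.

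The plot of hepatic genes sets these levels beside the collagen cells, and the range of TTR within the members bears on them. In CNT, the 14 cells with under 10 TTR UMIs per 10000 had a summed hepatic level of 1414 CPM, below the 1864 CPM of collagen cells, and the 16 cells from 10 to 25 and 17 cells from 25 to 50 had 16208 and 11478 CPM. Per-cell medians rose over these ranges, at 11.7, 57.0 and 96.0 UMIs per 10000. The highest CNT member held 1496, so single cells weigh on the sums. In 3CK the 37, 39 and 69 cells of those ranges had 4765, 8388 and 13067 CPM, all above the 835 CPM of collagen cells. The 14 lowest CNT cells also had a KRT18 median of 151 UMIs per 10000, against 29.3 and 44.5 in the next ranges, and HNF4A, a transcription factor of liver and gut epithelium, at 5.54 CPM against 41.6 and 38.0 CPM. In 3CK the KRT18 medians were 89.0, 97.3 and 84.1.

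Of the genes higher in TTR-low than in TTR-high cells of both libraries, S100A9, a calcium-binding protein of neutrophils and inflamed epithelium, ranked first by the smaller of its ratios, with log2 ratios of 8.20 and 1.88, but 9 of 47 CNT cells and 40 of 145 3CK cells held it. LCN2 had 6.80 and 1.21. GPC6 (glypican-6), PARD3 (a polarity protein) and FOXO1 (a transcription factor) had 1.44 and 1.41, 1.40 and 1.24, and 1.26 and 1.38, against a median of all genes of 0.37 and 0.32. Also among the 15 largest by this rank were BOK-AS1, AC012494.1, LINC00511, BBS9, ASAP1, DOCK5, MAML2, PRICKLE1, SAMD4A and XKR6, so no shared role of the set is shown. With TMM factors or DESeq2 size factors GPC6, PARD3 and FOXO1 were under 2-fold in both libraries. GPC6 was at 161 and 193 CPM in TTR-low cells and 440 and 332 CPM in collagen cells, and the part of RNA from such cells was not tested. Within CNT, 7 of 9 keratins were over 2-fold higher in TTR-low cells (13.7% of all genes were) with a median of 1.91, or 1.32 with TMM factors, KRT7 standing at 1604 against 331 CPM and KRT18 at 13786 against 3662 CPM. Within 3CK 0 of 7 keratins were, against 9.38% of all genes, with a median of -0.01. Of the regenerative genes 11 of 22 were over 2-fold higher in CNT (median 1.02) and 3 of 22 in 3CK (median 0.35), and with TMM factors these medians were 0.44 and -0.10. Among them was ANXA1, an annexin, at 640 against 161 CPM in CNT and 645 against 620 CPM in 3CK.

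The third comparison set the treated over untreated ratio of TTR-low cells beside that of TTR-high cells. Of 10604 genes, 559 (5.27%) had a ratio over 2-fold larger in TTR-low cells and 679 (6.4%) over 2-fold smaller, with a median difference of -0.03. The split was turned by other settings: TMM factors gave 801 larger and 465 smaller with a median of 0.13, DESeq2 size factors 637 and 566, and leaving out each gene's highest cell 737 and 428. The largest differences, in log2 units, were MYBL2 (3.04), S100A1 (2.86), FRZB (2.85), CXCL5 (2.54), SLC10A4 (2.25), LIFR (2.24), CFTR (2.21) and PITX1 (2.18). In several the untreated TTR-high cells were the high group: S100A1 stood at 63.0 CPM there against 3.65 CPM in untreated TTR-low cells, and at 9.08 and 3.82 CPM after treatment. MYBL2, a cell-cycle regulator, stood at 54.4 CPM in untreated TTR-high and 6.26 CPM in untreated TTR-low cells, and at 8.01 and 7.56 CPM after treatment. The smallest differences were SPP1 (-7.00), S100A9 (-6.32), MFAP5 (-6.08), SLPI (-5.91), LCN2 (-5.59), PLAAT4 (-5.10), SAA1 (-4.62) and CST6 (-4.42). PLAAT4 was at 605 CPM in untreated TTR-low cells, 92.9% of it in 1 cell, and its treated over untreated ratio of 2.20 became 5.93 without the highest cells, against 7.31 in TTR-high cells. MFAP5, a microfibril protein, was at 112 CPM in 19 untreated TTR-low cells and at 2.08 CPM in untreated TTR-high cells, and at 4.56 and 5.75 CPM after treatment.

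Per-cell variability after thinning, measured as variance over mean, was led in CNT by PLAAT4 (150), followed among genes outside the rule by KRT18 (131), APOA1 and AFP, and for AFP 80.5% of the UMIs came from 5 cells. In 3CK the CXCL10 value was 76.3. PHGR1, a gene of surface colonocytes, was absent from 122 of 145 thinned treated cells and reached 141 UMIs per 10000 in 1 cell.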

How the data were processed

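Each library was a 10x 3' (v3.1) single-cell RNA library. The authors' deposited counts are whole UMIs per gene and barcode, made with Cell Ranger 7.1.0 on GRCh38, per the submitters' processing notes, and are not normalized. Members were selected by the stated limits in Python 3.11.15 (numpy 2.4.6, scipy 1.17.1, pandas 2.3.3), and UMIs were summed over TTR-low, TTR-high and collagen cells of each library. Levels are CPM with exact Poisson intervals, and ratios carry intervals from the exact binomial share of both counts. Genes needed at least 10 CPM in 1 of the sums compared, and a sum of 0 was set to 3 UMIs, so that its ratio, also within list medians, is a bound. Being called means past 2-fold, since 1 library per group allows no test. Shares of cells are given after thinning each cell to 10000 UMIs, with a fixed seed; no member was shallower. TMM factors (edgeR 4.0.16) and DESeq2 1.42.0 size factors served only as other scalings.

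Genes were named by rank of ratio among those with at least 50 CPM: the 15 largest and 15 smallest for treated over untreated cells, likewise for TTR-low over TTR-high cells with 1 sign in both libraries, the 8 largest and smallest differences of ratios, and the 12 most variable genes per library. Markers and members of the gene lists were named beside them by role. The members and the 43 lists (734 symbols) were chosen with earlier results of these data known. Doublets were scored with Scrublet in scanpy 1.11.5, which marked 52 CNT and 16 3CK barcodes, 0 of them TTR-low and 3 of them TTR-high; none was removed. Promoter windows and gene starts came from RefSeq for GRCh38.p14. The scripts were tested on simulated data. Other boundaries, scalings and filters were also run. A few genes are not reported here.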

Additional observations from a re-analysis of the deposited data

Results flagged for a closer look

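For 5 genes the ratio of treated over untreated cells had opposite signs in TTR-low and TTR-high cells, each past 2-fold. With 1 library per group the difference was not tested, and several rest on few untreated TTR-low cells. FRZB, a secreted Wnt antagonist, had a log2 ratio of 1.20 in TTR-low cells and -1.65 in TTR-high cells. MT1B, a metallothionein with near-identical relatives, had 5.62 and -3.37; only 3 untreated and 7 treated TTR-low cells held it, and the TTR-low value was 3.69 without the highest cell of each sum. S100A9 had -2.16 and 4.16, with 9 untreated TTR-low cells holding a UMI. SLPI, a secreted protease inhibitor, had -3.07 and 2.84, also in 9 untreated TTR-low cells. SPP1 had -5.16 and 1.84, with 79.1% of its untreated TTR-low UMIs in 1 cell.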

How the results depend on the processing

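No paired analysis was possible because each group is 1 library and the groups share only 1 replicate number. The TTR boundary, scaling, cell weights, expression filter and highest cells were varied; the boundary at 5 times the collagen-cell median and the runs without highest cells were chosen after seeing the data. Of the count values 68 stayed within 1.5 times and 36 moved; the causes were not tested. Of the single-gene values, 2225 lay within the counting interval of the main value, 803 lay outside it and 6 reversed. A reversal was counted only where the main ratio was at least 2-fold, so smaller ratios that changed sign are not among them. Depth limits genes with under 3 UMIs in a sum.

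With members below 25 TTR UMIs per 10000, cells from 25 to 50 were in neither group. The shares, with those cells left out of the total, were 4.02% and 14.8%, so their totals differ from those of the other shares. TTR-low over TTR-high in 3CK then gave 1365 higher and 153 lower genes. At a boundary of 100, the shares were 9.31% and 41.6%, with 282 genes lower in CNT TTR-low than TTR-high cells and 309 larger ratios in TTR-low cells. At 5 times the collagen-cell median, the 3CK share was 6.51%, TTR-low over TTR-high in 3CK gave 505 higher and 235 lower, and 358 ratios were larger. TMM factors gave 566 genes lower in 3CK, 468 higher and 1246 lower for TTR-low over TTR-high in CNT, and 151 and 261 in 3CK; DESeq2 size factors gave 601, 554, 1025, 158 and 249. With equal weight per cell, 1918 genes were higher in 3CK TTR-low than TTR-high cells. At 1 CPM, treated over untreated gave 1586 higher and 3369 lower, TTR-low over TTR-high 4399 and 1045 in CNT and 2664 and 294 in 3CK, with 1243 smaller ratios. At 50 CPM these were 380 and 200, 339 and 193, 241 and 43, with 181 larger and 228 smaller ratios. Leaving out highest cells gave 594 lower in 3CK, 872 higher in CNT TTR-low cells and 428 smaller ratios.

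Directions reversed for PRSS2 (0.74), KRT20 (3.92), MUC2 (0.30) and the Paneth list of TTR-low over TTR-high in CNT (-1.81) below 25 TTR, for IL1RN (0.15) at 100, and for IL1B (-1.10) and MUC2 (1.496) at 5 times the collagen-cell median. At 1 CPM the MHC class II list was -0.37 and the other-endocrine list in CNT 1.19. At 50 CPM the hindgut list was 0.21 between libraries and -0.57 in CNT, and the stem list in CNT -0.80.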

Other observations

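Further gene lists are given here, against a median of all genes of -0.08. Of all genes, 7.06% were over 2-fold higher and 8.75% over 2-fold lower. Between treated and untreated TTR-low cells the unfolded protein response list had 2 of 17 genes higher and 0 lower, with a median log2 ratio of -0.04. The junction list had 1 of 23 higher and 0 lower, with a median of 0.35, and the basement membrane list 1 of 19 in each direction, with a median of 0.24. Metallothioneins, metal-binding proteins, had 4 of 8 higher and 0 lower, with a median of 1.33: MT2A was at 538 and 2579 CPM, while MT1X was at 149 and 146 CPM. The members of that family have near-identical sequences, so their separate levels are uncertain. The hindgut position list had 0 of 6 tested genes higher and 3 lower, with a median of -1.08, and the neural list 0 of 3 higher and 1 lower, with a median of -0.98. Mesenchymal genes outside the rule had 1 of 10 higher and 5 lower, with a median of -0.86, and the leukocyte list had 0 of 4 in either direction, with a median of -0.67. PLA2G2A, a secreted phospholipase that attacks bacterial membranes, was at 89.7 and 600 CPM.

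UPK3B and ISL1 had higher sums in untreated than in treated TTR-low cells. UPK3B, a uroplakin also made by mesothelium, was at 20.9 CPM in 11 of 47 untreated cells and at 0.973 CPM in 12 of 145 treated cells. ISL1, a transcription factor of several posterior and neural lineages, was at 14.1 CPM in 11 untreated cells and at 0.449 CPM in 6 treated cells. The level of UPK3B was 8.44 CPM and that of ISL1 4.66 CPM in untreated collagen cells. These genes were chosen after their values were seen.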
